A study of Mus musculus with 14 samples.

Results

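Iron handling was examined through 10 genes taken by symbol from the deposited expression table: the hepcidin copies Hamp and Hamp2, the transferrin gene Trf and its receptors Tfrc and Tfr2, the ferritin chains Fth1 and Ftl1, the iron exporter Slc40a1, the hepcidin inducer Bmp6 and the ferritin receptor Scara5. All 10 were found among the 29923 symbols of the table, and all 10 were among the 13466 genes at 1 TPM or more in at least 3 of 14 tumours that entered the tests. Values are in TPM, transcripts per length scaled to the same total in each sample, so levels can be set side by side between genes. The tumours were mouse hepatocellular carcinomas on a C57BL/6 background, raised by rapid tail-vein injection of Sleeping Beauty transposon plasmids, a route that reaches hepatocytes. The Luc model gave 4 tumours with Aoah and 4 with the empty vector, and the LucOS model gave 3 with Aoah and 3 with the empty vector. Luc tumours received MYC with luciferase behind the EF1a promoter, and LucOS tumours received the same cassette with the OVA, SIN and SIY antigens added. Aoah encodes acyloxyacyl hydrolase, which removes acyl chains from bacterial lipopolysaccharide. A plasmid for truncated beta-catenin (N90-CTNNB1) is also listed for the study without saying which tumours carried it, and the age of the mice, a pooling of animals and any anti-PD1 treatment of these tumours are not given in the labels. The labels do not say that tumours came from separate animals, so p-values measure only the spread between these samples, which may be technical.

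Liver is the main source of transferrin, the plasma carrier of iron, and of hepcidin, the peptide hormone that makes cells take up and degrade ferroportin, the exporter encoded by Slc40a1. Hepatocytes switch hepcidin on through bone morphogenetic proteins and SMAD factors when iron is plentiful, and through interleukin-6 and Stat3 in inflammation. Inside cells, ferritin shells built from a heavy chain (Fth1) and a light chain (Ftl1) store iron, and the transferrin receptor Tfrc brings it in. Iron regulatory proteins bind hairpins in several of these transcripts when iron is scarce: a hairpin in the 5′ untranslated region holds back translation, and hairpins in the 3′ untranslated region protect the transcript of Tfrc from decay.

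The mouse has 2 hepcidin copies, neighbours on chromosome 7 with 1 annotated gene (Usf2-ps1) between them, and their promoters are shown because the data separated the 2 copies. The 140 bases before each start site, from RefSeq on build GRCm38.p6, lie at chr7:30944030-30944169 (minus strand) for Hamp and at chr7:30924182-30924321 (minus strand) for Hamp2. Capitals mark a full match to GGCGCC, the core of the element through which bone morphogenetic proteins act on hepcidin, or to the STAT motif TTCNNNGAA.
Hamp: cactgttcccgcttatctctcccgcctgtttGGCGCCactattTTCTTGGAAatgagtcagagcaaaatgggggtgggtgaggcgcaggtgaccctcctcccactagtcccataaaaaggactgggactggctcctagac
Hamp2: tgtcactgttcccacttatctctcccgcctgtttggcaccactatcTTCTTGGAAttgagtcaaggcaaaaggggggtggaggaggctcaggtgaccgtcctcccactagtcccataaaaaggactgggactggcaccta

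The 2 stretches matched at 125 of 143 aligned columns (87.4%). Hamp held GGCGCC from 109 to 104 bases before its start, and Hamp2 differed there by the substitution G4A, counted from 1 at the first base of the motif in Hamp. Both held TTCTTGGAA, from 97 to 89 bases before the start in Hamp and from 94 to 86 in Hamp2. Both motifs read the same on either strand and did not overlap. Over the 32851 windows of 300 bases in the same table (250 before and 50 after each start), 11.9% held GGCGCC and 8.30% held the STAT motif. Of the 10 genes, 7 had a window there (11 windows in all); GGCGCC was found again in 1 of the windows of Tfrc, and the STAT motif in no window of the other genes. Trf, Slc40a1 and Scara5 had no entry. A match is only a run of letters, and no binding was measured.

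Hairpins of the iron-responsive kind were sought in the untranslated regions of 1 GENCODE M21 transcript per gene, the one with the longest coding sequence. They were defined as an unpaired C, 5 bases, the loop CAGTGN (in capitals below) and 5 bases that pair with the first 5 (A with T, G with C or G with T). They are printed because they occur in Fth1 and Tfrc, which fell with Aoah in Luc, and in Ftl1 and Slc40a1, which did not pass. Fth1 (chr19:9982738-9982754, plus strand), Ftl1 (chr7:45459785-45459801, minus strand) and Slc40a1 (chr1:45925471-45925487, minus strand) each had 1 in the 5′ untranslated region, and Tfrc had 4 in the 3′ untranslated region, between chr16:32631225-32631241 and chr16:32631716-32631732 (plus strand), all on GRCm38.
Fth1: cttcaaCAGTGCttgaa
Ftl1: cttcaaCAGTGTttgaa
Slc40a1: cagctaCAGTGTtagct
Tfrc, the first of 4: cggaagCAGTGCcttcc
Tfrc, the second of 4: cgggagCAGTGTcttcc
Tfrc, the third of 4: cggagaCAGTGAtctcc
Tfrc, the fourth of 4: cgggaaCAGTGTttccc

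No such hairpin was found by this definition in the transcripts of Hamp, Hamp2, Tfr2, Trf, Bmp6 or Scara5. Across all genes scanned, 19 of 19893 had one in the 5′ region (0.0955%) and 104 of 20484 in the 3′ region (0.508%). The hairpins of Fth1 and Ftl1 share the same stem, and the transcripts of these genes are set side by side below.

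Aoah stood at 284 to 685 TPM across Luc Aoah tumours and 0.74 to 54.8 TPM across Luc vector tumours, and at 576 to 931 TPM across LucOS Aoah tumours and 1.28 to 3.43 TPM across LucOS vector tumours. Luc vector 1 and Luc vector 3 held more of it (18.6 and 54.8 TPM) than the other Luc vector tumours (0.74 and 0.89 TPM). Each tumour had 11478 to 12836 genes at 1 TPM or more, and the sequencing depth is unknown. The mitochondrial share of TPM was 16.6% in LucOS Aoah 3 and 3.41% to 8.45% in the other tumours, and the small noncoding RNA Rn7sk stood at 1777 TPM in Luc Aoah 3 and 27.7 to 59.2 TPM elsewhere. Of 10 hepatocyte markers, all were at 0.1 TPM or more in at least 1 tumour of each group, and their summed level was 7103 to 23678 TPM in Luc Aoah, 6561 to 9310.01 TPM in Luc vector, 8019 to 18902 TPM across LucOS Aoah and 3525 to 8889.7 TPM across LucOS vector tumours. Much of this sum was Alb, which averaged 7185 TPM in Luc Aoah, 2357 TPM in Luc vector, 5811 TPM in LucOS Aoah and 1936 TPM in LucOS vector tumours. In bulk samples, fewer cells of a type and less RNA per cell cannot be told apart.

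**Figure D1:**
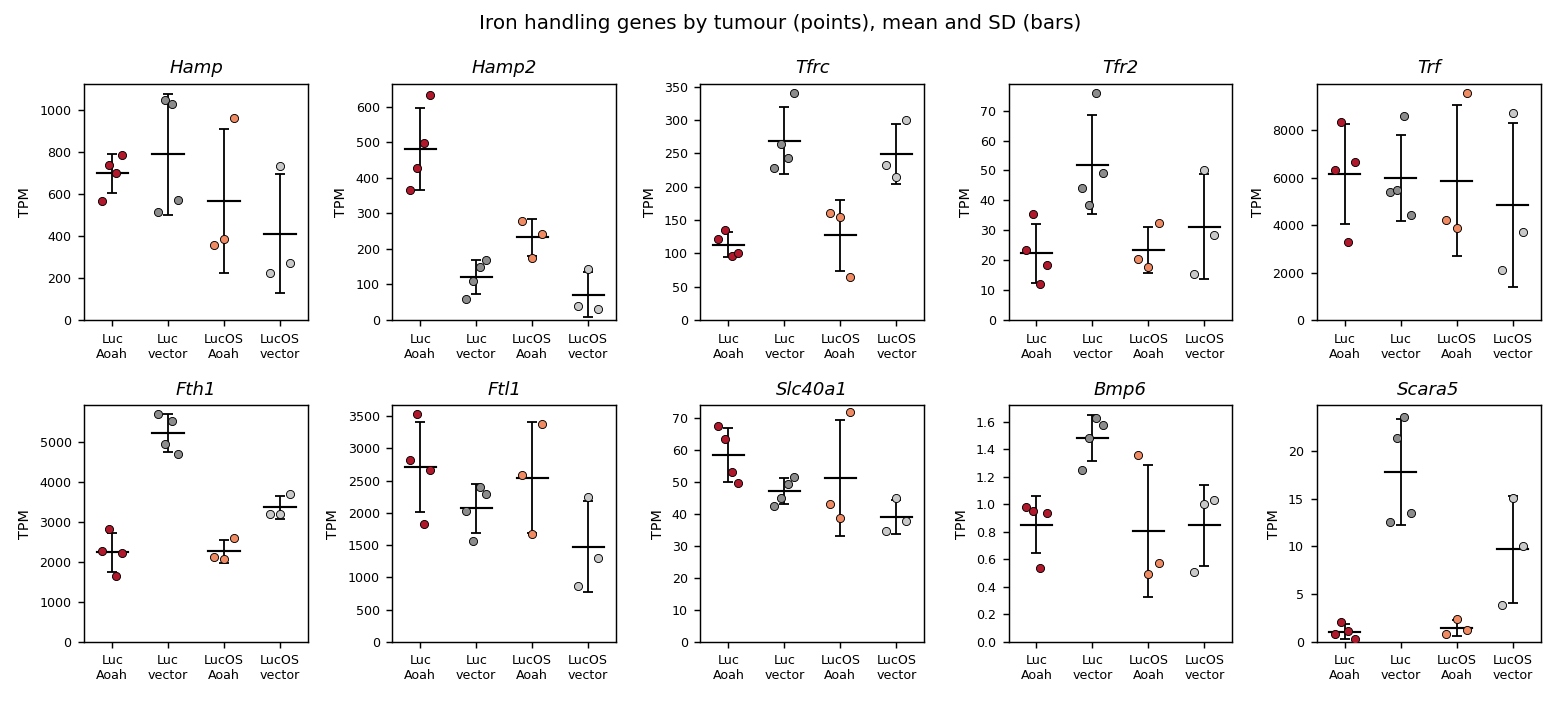
TPM (vertical axes, each from 0) of the 10 iron handling genes in each tumour, one panel per gene, for Luc Aoah and Luc vector (4 tumours each) and LucOS Aoah and LucOS vector (3 each). Points are tumours, horizontal lines are means and bars are SD. Hamp2 is higher, and Tfrc, Fth1 and Scara5 lower, in every Aoah tumour than in every vector tumour of its model.

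In Luc tumours, Aoah went with a rise of Hamp2 and with falls of Scara5, Fth1, Tfrc and Tfr2, while Hamp, Trf, Ftl1, Slc40a1 and Bmp6 did not pass the test. These 5 were called with limma at an adjusted p below 0.05. Among all 13466 genes, 7.93% were called higher and 14.3% lower, against 1 and 4 of the 10 iron handling genes. The median log2 change was -0.27 over the 10 genes and -0.24 over all genes tested. Centring each tumour on its own median called 2145 genes higher and 1975 lower, in place of 1068 higher and 1920 lower, and then 3 iron handling genes (Ftl1 and Slc40a1 in addition) were higher and 4 lower. The median of all genes was then 0.07. Relative to the uncentred median, Hamp2 stood at 2.30, Scara5 at -2.96, Fth1 at -0.997, Tfrc at -0.99 and Tfr2 at -0.99 on the log2 scale, and all 5 kept their calls after centring.

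In LucOS tumours, only the fall of Scara5 passed, and its call was lost under 13 of 24 alternative settings (adjusted p 0.0231 to 0.177 over them). There 0.75% of all genes were called higher and 0.215% lower, against 0 and 1 of the 10. The median log2 change was 0.14 over the 10 genes and -0.02 over all genes. The difference between the Aoah effects of the 2 models passed in 0 of the 10 genes and in 0.00743% of all genes. At an unadjusted p below 0.05 there was 1 of the 10 (Fth1, by 0.66 with SE 0.28, adjusted p = 0.443), as for 10.2% of all genes, so the models are not shown to differ.

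**Figure D2:**
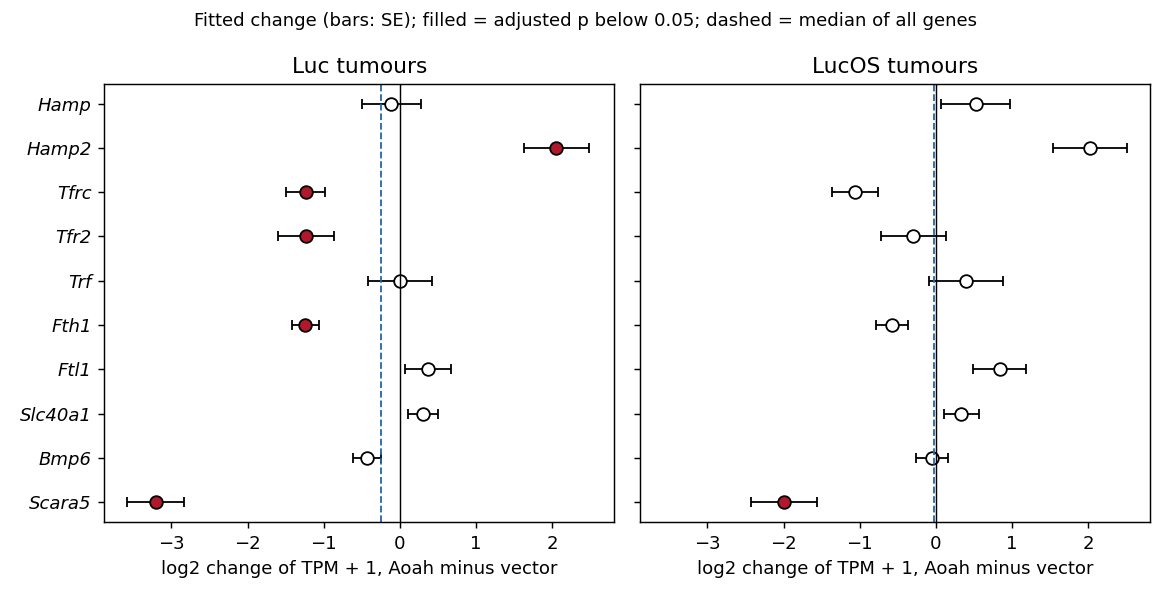
Fitted log2 change of TPM + 1, Aoah minus vector (horizontal axes), with SE bars, for each gene in Luc (left) and LucOS tumours (right). Filled points passed an adjusted p of 0.05 and the dashed line is the median of all 13466 genes. Hamp2 is the highest and Scara5 the lowest of the 10 in both models.

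Hamp2, the second hepcidin copy, was the 1 gene of the 10 that rose in Luc. It held 366, 428, 497 and 634 TPM in Luc Aoah tumours, against 58.0, 110.2, 148 and 169 TPM in Luc vector tumours. Among LucOS tumours it held 278, 175 and 243 TPM with Aoah, against 39.2, 143 and 29.6 TPM with vector. No Aoah tumour overlapped the vector tumours of its model. The log2 change was 2.06 (SE 0.42, adjusted p = 0.00606) in Luc, a ratio of means of 3.96, and 2.03 (SE 0.49, adjusted p = 0.0667) in LucOS, which did not pass. Without Luc vector 1 and 3 the Luc change was 1.78 and the call was lost (adjusted p = 0.0812), and without LucOS vector 2, the highest vector tumour of its model, the LucOS change was 2.71 and was called (adjusted p = 0.0019). In the authors' deposited table the log2 fold change of Hamp2 was 2.34 (adjusted p = 1.17e-09) in the Luc model and 1.77 (adjusted p = 0.0154) in LucOS.

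Hamp, the copy that encodes the iron-regulating hormone in mice, showed no such difference. It stood at 565, 737, 700.3 and 785 TPM in Luc Aoah tumours, against 512, 1046, 1028 and 570.05 TPM in Luc vector tumours. LucOS tumours stood at 356, 385 and 961 TPM with Aoah, against 223, 735 and 271 TPM with vector. Aoah and vector tumours overlapped in both models. The log2 change was -0.11 (SE 0.39, adjusted p = 0.840) in the Luc model and 0.52 (SE 0.45, adjusted p = 0.732) in LucOS. In Luc it was 0.13 above the median of all genes, and its sign turned after centring on the median (0.20).

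The transcripts of Hamp and Hamp2 matched at 92.4% of 420 aligned columns, with an identical run of 87 bases, so the split of reads between them is uncertain and their sum was tested too. The sum averaged 1178 ± 199 TPM in Luc Aoah and 910 ± 303 TPM in Luc vector tumours (SD, n = 4 each), and 799 ± 353 TPM in LucOS Aoah and 480.2 ± 345 TPM in LucOS vector tumours (SD, n = 3 each). On the log2 scale it differed by 0.42 in Luc (exact two-sided permutation p = 0.2) and by 0.87 in LucOS (exact p = 0.3), and with 4 such tests the adjusted values were 0.267 and 0.3. The share of Hamp2 in the sum, a measure chosen after its values were seen and not tested, was 36.8% to 44.7% in Luc Aoah and 9.53% to 22.9% in Luc vector tumours. Among LucOS tumours it was 20.2% to 43.9% with Aoah and 9.86% to 16.3% with vector, so that neither model overlapped.

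Trf, the transferrin gene, was among the highest of all transcripts, ranking 8 to 99 by TPM in the 14 tumours. It stood at 6334, 8351, 3279 and 6669.5 TPM in Luc Aoah tumours, against 5414, 5479.7, 8623 and 4435 TPM in Luc vector tumours. LucOS tumours held 4205, 3888 and 9568 TPM with Aoah, against 2106, 8759 and 3717 TPM with vector. The groups overlapped throughout, with log2 changes of 0.01 (SE 0.42, adjusted p = 0.991) in the Luc model and 0.40 (SE 0.49, adjusted p = 0.840) in LucOS. LucOS Aoah 3 and LucOS vector 2, high for Trf, were also the highest of their groups for Hamp, Tfr2, Ftl1 and Slc40a1. These 2 tumours had the highest summed hepatocyte markers of their groups (18902 and 8889.7 TPM) and the highest summed Kupffer cell markers (233 and 191 TPM). The part of these markers in the levels of Trf and the others was not tested.

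Tfrc, the receptor that carries transferrin-bound iron into most cells, was lower with Aoah. It held 122, 135, 95.7 and 100.3 TPM in Luc Aoah tumours, against 227, 264, 243 and 340.9 TPM in Luc vector tumours. LucOS tumours held 161, 155 and 65.0 TPM with Aoah, against 233, 214 and 299.5 TPM with vector. Every Aoah tumour lay below every vector tumour of its model. The log2 change was -1.24 (SE 0.26, adjusted p = 0.00667) in Luc, and it was called under all 24 alternative settings there (adjusted p 0.000591 to 0.0432). Among LucOS tumours it was -1.06 (SE 0.30, adjusted p = 0.116), which passed in none of 24. LucOS Aoah 3, the lowest tumour for Tfrc, is also the one with the raised mitochondrial share.

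Tfr2, the second transferrin receptor, which in hepatocytes takes part in sensing plasma iron for hepcidin, was at lower levels than Tfrc in every tumour. It stood at 23.4, 35.4, 12.1 and 18.4 TPM in Luc Aoah tumours, against 44.2, 38.6, 75.8 and 49.2 TPM in Luc vector tumours. LucOS tumours held 20.3, 17.6 and 32.3 TPM with Aoah, against 15.3, 50.1 and 28.4 TPM with vector. The Luc groups did not overlap, though Luc Aoah 2 and Luc vector 2 lay close together, and the LucOS groups overlapped. The change was -1.23 (SE 0.36, adjusted p = 0.0319) in the Luc model and -0.29 (SE 0.42, adjusted p = 0.872) in LucOS. The Luc call was lost without any one of Luc Aoah 1, 3 or 4 or Luc vector 1, 3 or 4 (log2 changes -0.99 to -1.30, adjusted p 0.0572 to 0.103). The difference between models was 0.94 (SE 0.56, adjusted p = 0.449).

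Of the ferritin chains, Fth1 fell in Luc and Ftl1 did not pass in either model. Fth1, the heavy chain with the ferroxidase site, held 2273, 2827, 1637 and 2222 TPM in Luc Aoah tumours, against 5699, 4946, 5518 and 4677 TPM in Luc vector tumours. LucOS tumours held 2115, 2065 and 2588 TPM with Aoah, against 3195, 3185 and 3688 TPM with vector. Aoah tumours of both models lay in the same range, and each was below every vector tumour. The log2 change was -1.24 (SE 0.18, adjusted p = 0.000668) in Luc, called under all 24 alternatives (adjusted p 0.000437 to 0.0277), and -0.58 (SE 0.21, adjusted p = 0.253) in LucOS.

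Ftl1, the light chain, which aids the mineral core, held 2816, 3528, 1822 and 2659.8 TPM in Luc Aoah tumours, against 2023, 1561, 2405 and 2289.6 TPM in Luc vector tumours. Among LucOS tumours it held 2582, 1667 and 3382 TPM with Aoah, against 867, 2250.1 and 1303 TPM with vector. The groups overlapped in both models, through Luc Aoah 3 and LucOS Aoah 2. The change was 0.37 (SE 0.30, adjusted p = 0.360) in the Luc model and 0.84 (SE 0.35, adjusted p = 0.336) in LucOS. It lay 0.61 above the median of all genes in Luc, and passed there after centring on the median (0.68, adjusted p = 0.0319). In the authors' deposited table the Luc log2 fold change of Ftl1 was 0.65 (adjusted p = 1.86e-05). The pseudogene Ftl1-ps1, listed at 28.8 to 99.96 TPM, may share reads with Ftl1.

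The ratio of Fth1 to Ftl1 was 0.807, 0.801, 0.899 and 0.835 in Luc Aoah tumours, against 2.82, 3.17, 2.29 and 2.04 in Luc vector tumours. Within the LucOS model it was 0.819, 1.24 and 0.765 with Aoah, against 3.69, 1.42 and 2.83 with vector. The heavy chain was thus above the light chain in all 7 vector tumours and in 1 of 7 Aoah tumours. The log2 ratio differed by -1.61 in Luc (exact two-sided permutation p = 0.0286, the smallest 4 against 4 can give) and by -1.42 in LucOS (exact p = 0.1, the smallest 3 against 3 can give). After adjustment over the 4 exact tests these were 0.114 and 0.2, which did not pass. Both chains together summed to 4946 ± 1186 TPM in Luc Aoah and 7279.6 ± 659.9 TPM in Luc vector tumours (SD, n = 4 each), and to 4799.9 ± 1123 TPM in LucOS Aoah and 4829 ± 701 TPM in LucOS vector tumours (SD, n = 3 each), a description with no test.

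**Figure D3:**
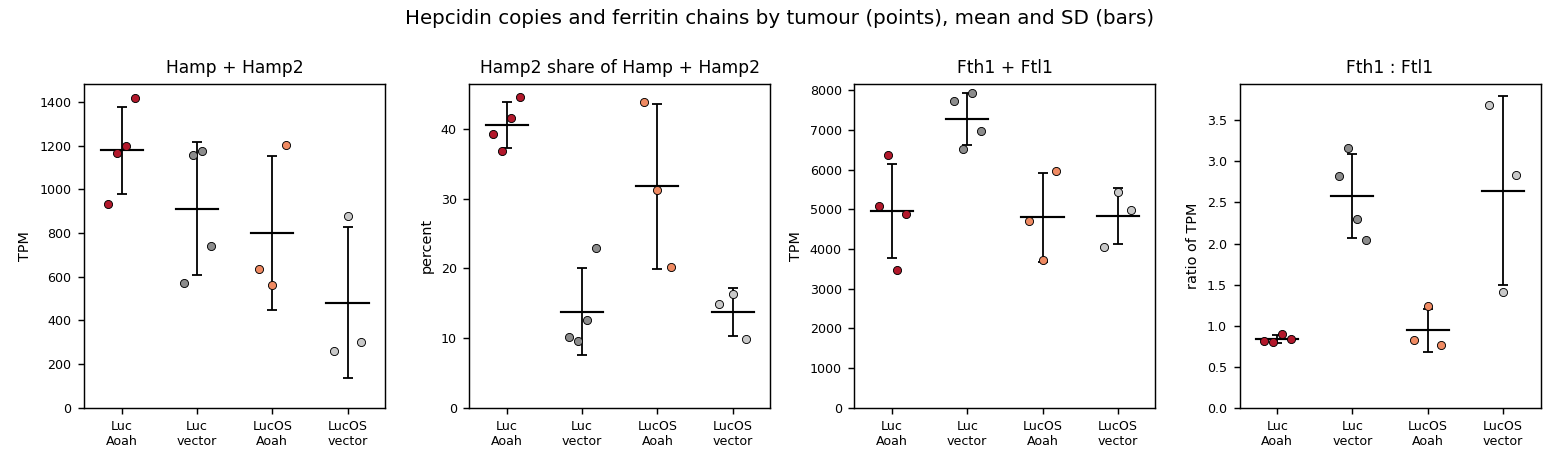
Summed Hamp and Hamp2 (TPM), the share of Hamp2 in that sum (percent), summed Fth1 and Ftl1 (TPM) and the ratio of Fth1 to Ftl1 (vertical axes, each from 0) in each tumour of Luc Aoah, Luc vector, LucOS Aoah and LucOS vector. Points are tumours, lines are means and bars are SD. The ratio is 0.765 to 1.24 in the Aoah tumours and 1.42 to 3.69 in the vector tumours.

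Slc40a1, the ferroportin gene and the target of hepcidin, lay between 34.7 and 72.1 TPM and passed in neither model before centring on the median. It held 67.8, 63.4, 53.1 and 49.6 TPM in Luc Aoah tumours, against 42.6, 45.2, 49.3 and 51.5 TPM in Luc vector tumours. Among LucOS tumours it held 43.1, 38.9 and 72.1 TPM with Aoah, against 34.7, 45.1 and 37.9 TPM with vector. Luc Aoah 4 lay within the vector range, and so did both lower LucOS Aoah tumours. The change was 0.30 (SE 0.20, adjusted p = 0.257) in the Luc model and 0.34 (SE 0.23, adjusted p = 0.631) in LucOS. After centring on the median it passed in Luc (0.61, adjusted p = 0.0206), and the authors' deposited table gives Slc40a1 a log2 fold change of 0.59 (adjusted p = 0.00644) there. Macrophages, which recycle iron, also use ferroportin, and the summed macrophage and monocyte markers were 429.5 to 438 TPM across Luc Aoah and 199 to 275 TPM across Luc vector tumours. In LucOS these sums were 328 to 694 TPM in those with Aoah and 263 to 399.5 TPM in those with vector. The Luc sums mostly followed Lyz2, which averaged 285.5 TPM in Luc Aoah and 77.6 TPM in Luc vector tumours. Cd14 averaged 7.04 and 36.2 TPM in these groups, and of the 10 markers 3 were called higher and 1 lower in Luc. Their part in the level of Slc40a1 was not tested.

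Bmp6, made in liver mainly by sinusoidal endothelial cells and the signal of iron stores to hepcidin, had the lowest mean of the 10 over the 14 tumours, though Scara5 lay below it in Luc Aoah 1, Luc Aoah 4 and LucOS Aoah 1. It stood at 0.98, 0.95, 0.54 and 0.94 TPM in Luc Aoah tumours, against 1.25, 1.48, 1.63 and 1.58 TPM in Luc vector tumours. LucOS tumours stood at 1.36, 0.49 and 0.57 TPM with Aoah, against 0.51, 1.00 and 1.03 TPM with vector. It passed the filter on low values mainly through the Luc vector tumours. The Luc groups did not overlap, but the change of -0.43 (SE 0.19) did not pass (adjusted p = 0.0977), nor did -0.05 (SE 0.21, adjusted p = 0.968) in LucOS. The summed sinusoidal markers were 48.3 to 73.5 TPM across Luc Aoah and 18.9 to 47.9 TPM across Luc vector tumours. Of these, 4 of 10 were called higher and 0 lower, against 7.93% and 14.3% of all genes. In LucOS they were 35.8 to 74.5 TPM in those with Aoah and 22.7 to 42.5 TPM in those with vector. Of these 10 markers, 0 passed in LucOS. Their part in the level of Bmp6 was not tested.

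Scara5, a scavenger receptor that takes up ferritin, had the largest fall of the 10 in both models. It held 0.80, 2.12, 1.08 and 0.29 TPM in Luc Aoah tumours, against 12.6, 21.4, 23.6 and 13.6 TPM in Luc vector tumours. Among LucOS tumours it held 0.81, 2.43 and 1.22 TPM with Aoah, against 3.90, 15.1 and 10.1 TPM with vector. All 7 Aoah tumours lay at or below 2.43 TPM and all 7 vector tumours at or above 3.90 TPM. The log2 change was -3.20 (SE 0.37, adjusted p = 0.000142) in Luc, called under all 24 alternatives, and -1.99 (SE 0.43, adjusted p = 0.0443) in LucOS. The LucOS call was lost without any one of Luc Aoah 1, Luc vector 1, 3 or 4, LucOS Aoah 1 or 3, or LucOS vector 2 or 3 (log2 changes -1.62 to -1.99, adjusted p 0.0579 to 0.177). It was also lost at a pseudocount of 0.1 (-2.55, adjusted p = 0.0627). In the authors' deposited table the log2 fold change of Scara5 was -3.87 (adjusted p = 4.38e-16) in the Luc model and -2.56 (adjusted p = 0.000334) in LucOS.

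Scara5 is known in fibroblast-like cells of several tissues, so the stellate cell and fibroblast markers were set beside it. Their summed level was 141 to 204 TPM across Luc Aoah and 43.9 to 75.3 TPM across Luc vector tumours, and 114 to 235 TPM across LucOS Aoah and 64.0 to 80.4 TPM across LucOS vector tumours. In Luc, 5 of 8 tested markers of this list were called higher and 0 lower, against 7.93% and 14.3% of all genes. In LucOS 0 of these 8 passed in either direction. Neutrophil markers summed to 51.3 to 102 TPM across Luc Aoah and 140.2 to 393 TPM across Luc vector tumours. Of these, 5 of 8 were called lower and 0 higher, against 14.3% and 7.93% of all genes. In LucOS, where 0 of the 8 passed, the neutrophil sums were 127 to 450.4 TPM in those with Aoah and 404 to 915 TPM in those with vector. Between the vector groups, the neutrophil sums were higher in LucOS (404 to 915 TPM) than in Luc (140.2 to 393 TPM), close at the edges. Of the 8 markers, 0 were called in that comparison. Scara5 averaged 9.68 ± 5.60 TPM in LucOS vector and 17.8 ± 5.55 TPM in Luc vector tumours (SD, n = 3 and n = 4), with overlap and no call. Lrat, among the higher, and Mmp8, among the lower, reached 1 TPM only on the side where each was high. The part of these cells in the level of Scara5 was not tested.

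Of the 10 genes, 6 did not overlap between Luc Aoah and Luc vector tumours, as did 20.9% of all genes. In LucOS this held for 4, as it did for 12.3% of all genes. The 4 genes Hamp2, Tfrc, Fth1 and Scara5 did not overlap in either model and moved the same way in both, as did 5.67% of all genes. These 2 comparisons share no tumours.

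The added antigens alone gave no call among the iron handling genes. Among vector tumours, LucOS against Luc called 0 of 10 iron handling genes and 0% of all 13466 genes with limma. At an unadjusted p below 0.05 there were 5 of the 10 (Hamp, Hamp2, Fth1, Bmp6 and Scara5) and 14.2% of all genes. The 5 became 0 after centring on the median, and 1 without Luc vector 3 or without LucOS vector 1. The count rose to 7 without LucOS vector 2 and to 6 without Luc Aoah 3. Fth1 averaged 3356 ± 288 TPM in LucOS vector tumours and 5209.8 ± 479 TPM in Luc vector tumours (SD, n = 3 and n = 4), a log2 change of -0.63 (SE 0.20, adjusted p = 0.344), with no overlap between the groups. Hamp averaged 409 ± 283 TPM in LucOS vector and 789 ± 287 TPM in Luc vector tumours, with overlap and a log2 change of -1.08 (SE 0.42, adjusted p = 0.344). All 10 log2 changes in this comparison were below 0, where the median of all genes was -0.25, but those of Tfrc and Slc40a1 were above 0 after centring on the median (0.21 and 0.05).

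Among Aoah tumours, LucOS against Luc also called 0 of 10, against 0.0817% of all genes, and 1 of the 10 reached an unadjusted p below 0.05, as did 7.01% of all genes. That gene was Hamp2, which averaged 232 ± 52.5 TPM in LucOS Aoah and 481 ± 115 TPM in Luc Aoah tumours (SD, n = 3 and n = 4). These groups did not overlap, and the log2 change was -1.04 (SE 0.46, adjusted p = 0.677). Fth1 averaged 2256 ± 289 TPM in LucOS Aoah and 2239.7 ± 486 TPM in Luc Aoah tumours (SD, n = 3 and n = 4), a log2 change of 0.03 (SE 0.20, adjusted p = 0.981).

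Other genes of iron metabolism were followed through 7 lists. Among all genes tested, 7.93% were called higher and 14.3% lower in Luc, and 0.75% higher and 0.215% lower in LucOS. In the list for uptake, storage and export, 0 of 16 tested genes were higher and 6 lower in Luc Aoah than in Luc vector tumours, with a median log2 change of -0.87 against -0.24 over all genes. Lcn2, which encodes the siderophore-binding lipocalin 2 of inflamed liver and neutrophils, averaged 248 ± 229.8 TPM in Luc Aoah and 1271 ± 519 TPM in Luc vector tumours (log2 change -2.72, SE 0.70, adjusted p = 0.0217). Slc39a14, the transporter that brings iron not bound to transferrin into hepatocytes, averaged 18.5 ± 10.1 and 64.0 ± 10.8 TPM in these groups (log2 change -1.86, SE 0.36, adjusted p = 0.00448). The other 4 that fell were Slc11a2, an importer of ferrous iron, Steap2, a metalloreductase, Pcbp2, an iron chaperone, and Lrp1, a receptor for haemopexin-bound haem. In LucOS 0 of these 16 passed in either direction.

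**Figure D4:**
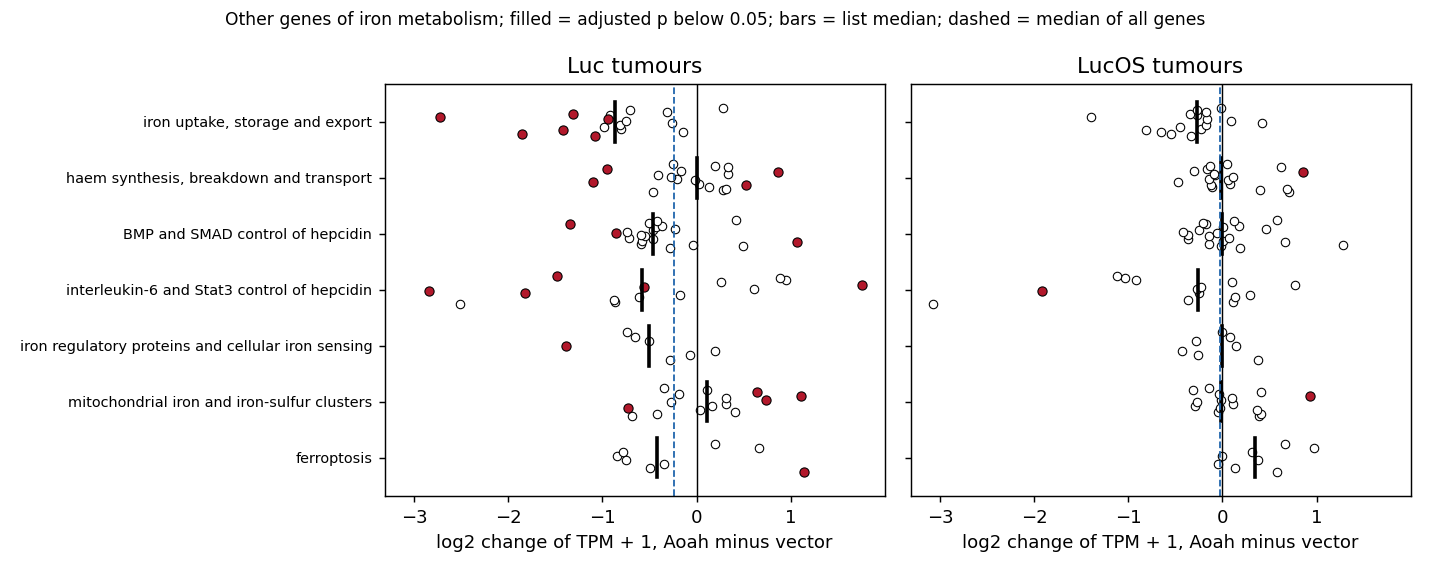
Fitted log2 change of TPM + 1, Aoah minus vector (horizontal axes), of each tested gene of 7 lists of iron metabolism in Luc (left) and LucOS tumours (right). Filled points passed an adjusted p of 0.05, thick bars are list medians and the dashed line is the median of all genes. In Luc the list for uptake, storage and export has 6 of 16 genes lower and 0 higher, against 14.3% and 7.93% of all genes.

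The interleukin-6 and Stat3 list holds regulators of hepcidin and also acute-phase genes such as Fgb. It had 1 of 14 genes higher (Lifr) and 4 lower (Stat3, Socs3, Fgb and Osmr) in Luc, against 7.93% and 14.3% of all genes. Its median was -0.58. Osmr reached 1 TPM only in vector tumours, so that it entered the test through the side where it was high. Socs3, the feedback inhibitor induced by Stat3, averaged 2.80 ± 1.08 TPM in Luc Aoah and 25.8 ± 5.41 TPM in Luc vector tumours (log2 change -2.85, SE 0.34, adjusted p = 0.000151). It was also the 1 gene of the list that passed in LucOS (log2 change -1.92, adjusted p = 0.0335). Stat3 itself averaged 11.8 ± 8.29 TPM in Luc Aoah and 40.1 ± 13.4 TPM in Luc vector tumours (log2 change -1.83, SE 0.42, adjusted p = 0.0113).

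The list for bone morphogenetic protein and SMAD control had 1 of 20 higher and 2 lower in Luc, near the shares over all genes (7.93% and 14.3%). Its median was -0.46 in Luc, and 0 passed in LucOS. Bmp2, an endothelial inducer of hepcidin, averaged 2.56 ± 0.697 TPM in Luc Aoah and 0.685 ± 0.268 TPM in Luc vector tumours (log2 change 1.07, SE 0.21, adjusted p = 0.00448). Atoh8, a transcription factor that acts on the hepcidin promoter, averaged 2.59 ± 1.24 and 7.82 ± 1.84 TPM in these groups (log2 change -1.34, SE 0.31, adjusted p = 0.0106), and the SMAD factor Smad1 was the other gene that fell. Bmp2 reached at most 1.04 TPM in Luc vector and 0.95 TPM in LucOS vector tumours. It thus entered the test through Aoah tumours, the side where it was high.

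Of 18 haem genes, 2 were higher (Blvrb and Uros) and 2 lower in Luc, near the shares over all genes (7.93% and 14.3%), with a median of 0.0003. Cpox, an enzyme of haem synthesis, averaged 56.2 ± 17.9 TPM in Luc Aoah and 118 ± 15.99 TPM in Luc vector tumours (log2 change -1.10, SE 0.22, adjusted p = 0.00563). Flvcr2, a transporter first described for haem, averaged 0.795 ± 0.375 and 2.45 ± 0.472 TPM in these groups (log2 change -0.96, adjusted p = 0.00529). Flvcr2 was above 1 TPM in every Luc vector tumour and below it in every LucOS Aoah tumour. It thus entered the test mainly through vector tumours, the side where it was high. Blvrb, a biliverdin reductase named after its values were seen, was the 1 haem gene called in LucOS (log2 change 0.85, adjusted p = 0.0333).

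Of 15 genes for mitochondrial iron and iron-sulfur clusters, 3 were higher (Fdx1, Isca2 and Cisd1) and 1 lower (Nfs1) in Luc, with a median of 0.11. Over all genes the shares were 7.93% and 14.3%. Fdx1, a ferredoxin, averaged 117 ± 13.4 TPM in Luc Aoah and 53.7 ± 6.38 TPM in Luc vector tumours (log2 change 1.11, SE 0.15, adjusted p = 0.000406), and it also passed in LucOS (log2 change 0.94, adjusted p = 0.0256). Isca2, a cluster assembly factor, averaged 88.4 ± 11.1 and 52.5 ± 7.26 TPM in the Luc groups (log2 change 0.74, adjusted p = 0.0137). In the ferroptosis list 1 of 8 was higher and 0 lower in Luc, against 7.93% and 14.3% of all genes, and 0 passed in LucOS. That gene was Gpx4, the peroxidase that removes lipid peroxides, at 936 ± 141 TPM in Luc Aoah and 424 ± 68.5 TPM in Luc vector tumours (log2 change 1.14, SE 0.19, adjusted p = 0.00143). Of 7 genes for iron sensing, 1 fell in Luc, near the share over all genes (14.3%), and 0 in LucOS. It was Epas1, a hypoxia-inducible factor (log2 change -1.38, SE 0.46, adjusted p = 0.0461). The iron regulatory protein genes Aco1 and Ireb2 did not pass.

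The genes whose log2(TPM + 1) followed each iron gene most closely over the 14 tumours differed from gene to gene. Pearson's r is given as a description over tumours that fall into 4 groups, for the highest of the 13466 genes with predicted genes and the 10 themselves left out. Scara5 was most like Socs3 (r = 0.98), Cd14 (r = 0.96) and F13a1 (r = 0.96), and Fth1 most like Ngef (r = 0.98), Nr0b2 (r = 0.97) and Spred1 (r = 0.97). Tfrc was most like Rpl30 (r = 0.97), Mat2a (r = 0.97) and Bhlhb9 (r = 0.95), and Tfr2 most like C3, Ccpg1 and Ggt6 (r = 0.98 each). Hamp2 was most like Mup21 (r = 0.96), Akr1c14 (r = 0.95) and Cbr1 (r = 0.95), whereas Hamp was most like Fgf1 (r = 0.90), Ldhd (r = 0.87) and Aldh1l1 (r = 0.87). Trf was most like Pzp (r = 0.95), Rras (r = 0.95) and Fgf1 (r = 0.94), so that Fgf1 stood in the lists of both Hamp and Trf. Ftl1 was most like its own pseudogene Ftl1-ps1 (r = 0.98), then Ephx1 and Glrx (r = 0.97 each). Slc40a1 was most like Adra1b (r = 0.93), Slc9a9 and Chst15 (r = 0.89 each), and Bmp6 most like Tmem238, Rab40c and Asb8 (r = 0.91 each).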

How the data were processed

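Bulk polyA RNA of 14 mouse tumours was analysed, grouped by the labels. The deposited table holds log2 values of TPM plus 1 per gene symbol. Per the submitters' processing notes, the authors used RSEM and DESeq2 with build mm39, all without versions; no aligner is named. TPM was recovered by undoing the log. It keeps no depth, so no interval or detection limit could be computed. The library protocol in the labels names both directional and non-directional kits, so overlapping genes may share reads. The authors' deposited tables give log2 fold changes, Wald statistics (a score, not printed) and p-values. Their numerator is unstated, and Aoah over vector was assumed because Aoah itself was positive in both. Another deposited table was not used.

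Genes at 1 TPM or more in at least 3 tumours were fitted on log2(TPM + 1) with limma 3.58.1 (R 4.3.3), with 1 mean per group, moderated by trend and robustly. P-values were adjusted with Benjamini-Hochberg over all genes tested, at 0.05. Fold changes on this scale understate changes of low genes. The fit was tested on simulated data. Summed hepcidin and the ferritin ratio had exact permutation tests. Members and lists were chosen with earlier results of these data known. From each list the 2 genes with the largest Luc change past 0.05 were named, and for each member the 3 genes of highest Pearson r. Other genes are named as such or complete a small count. Sequences came from RefSeq (GRCm38.p6) and GENCODE M21 (GRCm38), an older build than mm39.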

Additional observations from a re-analysis of the deposited data

Results flagged for a closer look

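Bmp6 stood at 0.54 TPM in Luc Aoah 3. The other 3 tumours of that group held 0.94 to 0.98 TPM, so that the gap below them was 0.909 of the range of the group. Chance flags about 1 in 20 groups, and 26 groups of 4 were examined. Luc Aoah 3 is also the tumour with raised small noncoding RNA and the lowest of its group for Trf, Tfrc, Tfr2, Fth1 and Ftl1. The part of that composition in these values was not tested.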

How the results depend on the processing

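Scara5, Fth1 and Tfrc kept their Luc calls under all 24 alternatives and Hamp2 under 23, while Tfr2 kept its call under 14. Members called numbered 5 in Luc and 1 in LucOS. Leaving out 1 tumour at a time gave 4 to 5 in Luc and 0 to 1 in LucOS. Excluding Luc vector 1 and 3 gave 3 in Luc. In LucOS the count was 0 with a pseudocount of 0.1, with no filter, with only the groups of the comparison, excluding Luc vector 1 and 3, and excluding Luc Aoah 3 and LucOS Aoah 3. The cause was not tested. The log2 ratio of Fth1 to Ftl1 in Luc was -1.61 excluding Luc vector 1 and 3 (exact p = 0.0667), where fewer tumours limit p. Alternatives were run for the 10 iron handling genes and not for genes of the other lists. Over the 5 comparisons and all settings, 1100 values of the 10 kept their direction and their side of the threshold, 24 lost and 3 gained a call, and 57 that were not called changed sign; no called one of the 10 changed direction.

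Over all genes, 2988 were called in Luc and 130 in LucOS. Without a filter these counts were 1288 and 15, with centring 4120 and 218, with quantile normalization 4463 and 256, and excluding Luc vector 1 and 3 they were 355 and 22. Excluding Luc Aoah 3 and LucOS Aoah 3 gave 1374 and 15, only the groups of the comparison 2588 and 6, and leaving out 1 tumour 855 to 5251 and 13 to 353. Tumours of the same number did not deviate together (r = -0.554 to 0.096), and 1 of 7 correlated best with its own number. These few values show no pairing by number, but with 3 or 4 tumours per group they cannot exclude it. With the replicate block 1168 and 34 genes and 4 and 1 members were called, Tfr2 was not called (adjusted p = 0.068) and the ratio of Fth1 to Ftl1 was -1.61 (exact p = 0.125) in Luc. TPM keeps no depth, so counting error could not be separated from the spread between tumours.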

Other observations

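Markers of the cells that take part in iron turnover were counted in the same limma fit. Among all genes, 7.93% were called higher and 14.3% lower in Luc, and 0.75% and 0.215% in LucOS. Of 10 hepatocyte markers, 2 were higher and 0 lower in Luc Aoah than in Luc vector tumours. These were Alb (log2 change 1.41, adjusted p = 0.0357) and Ttr (1.40, adjusted p = 0.00881), and Ttr alone passed in LucOS (1.78, adjusted p = 0.033). Without a call in Luc, Hnf4a (-1.19), Cps1 (-0.77), Apob (-0.52) and Ass1 (-0.18) lay below 0. Apoa1 (0.97), Serpina1a (0.31), Cyp2e1 (1.00) and Tat (0.24) lay above 0. Of 10 Kupffer cell markers, cells that recycle iron from aged red cells, 3 were higher and 0 lower in Luc (Clec4f, Timd4 and Folr2), and 0 passed in LucOS. Timd4 averaged 0.485 TPM in Luc vector and 0.967 TPM in LucOS vector tumours, and entered the test mainly through Aoah tumours, where it was high. Of 10 macrophage and monocyte markers, 3 were higher (Lyz2, Ly6c2 and Ccr2) and 1 lower (Cd14) in Luc, and 0 passed in LucOS. Of 6 tested erythroid markers 1 was lower in Luc (Slc4a1, 0.0825 ± 0.0479 TPM in Luc Aoah and 1.61 ± 1.23 TPM in Luc vector tumours, SD, n = 4 each), and it reached 1 TPM, and so entered the test, only through vector tumours. The summed erythroid markers, which follow blood in the sample, overlapped at 644 to 1047 TPM across Luc Aoah and 353 to 859 TPM across Luc vector tumours. Of 12 cell cycle markers 0 passed in either model.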
